A study of Homo sapiens with 12 samples.

Results

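The long non-coding RNAs (lncRNAs) described here are the hosts of small nucleolar RNAs (snoRNAs) together with a set of abundant, well-known lncRNAs. They were taken by name: every gene called SNHG plus a number, and GAS5, ZFAS1, EPB41L4A-AS1, DANCR, MALAT1, NEAT1, H19, MEG3, MIR17HG, DLEU2, PVT1, TUG1, NORAD and LINC-PINT. This gave 37 of the 58174 rows of the deposited table, with 36 symbols, since MALAT1 has a second, short row. By role, 26 rows are snoRNA hosts, 3 are RNAs of nuclear bodies, 2 are imprinted, 2 host miRNAs and 4 have other functions. Hosts that the table carries under other names were not counted. Of the 37 rows, 34 passed the filter on low counts and were tested. H19, SNHG18 and the short MALAT1 row did not pass.

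RNA came from H520 (NCI-H520), a long-established cell line from a human squamous cell carcinoma of the lung, in 12 libraries, 3 for each of 4 groups. The combination group received BLU9931 and palbociclib, each at 1 µM, the palbociclib group palbociclib alone at 1 µM, and the BLU9931 group BLU9931 alone at 1 µM, all for 72 h. The control group received neither drug, and the labels do not say whether it received a vehicle. BLU9931 binds covalently to FGFR4, a fibroblast growth factor receptor, and blocks its kinase. Palbociclib inhibits CDK4 and CDK6, the kinases that phosphorylate RB before S phase. Whether replicate libraries are separate cultures is not in the labels, so p-values measure the spread between these libraries, which may be technical. All groups share 1 cell line. In bulk RNA, fewer cells that express a gene and less of its RNA per cell cannot be told apart.

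A snoRNA host is spliced like an mRNA, but its introns carry the snoRNAs. Many snoRNAs, though not all, guide the ribose methylation (C/D class, SNORD genes) or pseudouridylation (H/ACA class, SNORA genes) of ribosomal RNA. The spliced exons of many hosts begin with a terminal oligopyrimidine (TOP) run, a C followed by pyrimidines as in ribosomal protein mRNAs, and several are degraded by nonsense-mediated decay when translated. NEAT1 is the scaffold of paraspeckles, and MALAT1 is retained in nuclear speckles. DLEU2 and MIR17HG are the primary transcripts of miRNA clusters.

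The mature miRNAs carried by MIR17HG and DLEU2 are shown because those hosts had the deepest falls. They come from RefSeq (GRCh38.p14), 5′ to 3′, with the seed (bases 2 to 8) in capitals.
hsa-miR-17-5p: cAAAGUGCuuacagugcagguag
hsa-miR-20a-5p: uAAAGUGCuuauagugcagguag
hsa-miR-18a-5p: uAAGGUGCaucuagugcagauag
hsa-miR-19a-3p: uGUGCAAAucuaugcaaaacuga
hsa-miR-19b-3p: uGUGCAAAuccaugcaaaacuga
hsa-miR-92a-3p: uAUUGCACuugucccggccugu
hsa-miR-15a-5p: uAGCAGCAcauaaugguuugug
hsa-miR-16-5p: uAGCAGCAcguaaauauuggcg
The first 6 lie in MIR17HG. There miR-17-5p and miR-20a-5p share one seed, miR-19a-3p and miR-19b-3p share another, and miR-18a-5p and miR-92a-3p have their own. The last pair lies in DLEU2 and shares a seed. The rows of the miRNA genes themselves held between 0 and 10 counts over all 12 libraries and were not tested, so the values below are those of the host transcripts.

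The starts of 9 snoRNA hosts are shown next, 15 bases before and 35 from the RefSeq start on (GRCh38.p14). The first 5 are the hosts called in the most comparisons, and the others are hosts whose starts carry a TOP run. Capitals mark a TOP run, defined as C followed by at least 5 pyrimidines that covers the start or begins within 5 bases of it.
SNHG1 (chr11:62855851-62855900, minus strand): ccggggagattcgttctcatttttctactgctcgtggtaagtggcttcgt
SNHG3 (chr1:28505928-28505977, plus strand): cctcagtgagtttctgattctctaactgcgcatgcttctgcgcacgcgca
SNHG10 (chr14:95534838-95534887, minus strand): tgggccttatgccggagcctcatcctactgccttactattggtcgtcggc
SNHG12 (chr1:28581839-28581888, minus strand): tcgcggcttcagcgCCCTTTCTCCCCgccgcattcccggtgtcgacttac
SNHG26 (chr7:22854225-22854274, plus strand): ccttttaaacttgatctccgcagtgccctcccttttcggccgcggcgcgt
SNHG4 (chr5:139274086-139274135, plus strand): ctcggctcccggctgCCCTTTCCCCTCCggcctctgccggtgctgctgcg
SNHG19 (chr16:2155324-2155373, minus strand): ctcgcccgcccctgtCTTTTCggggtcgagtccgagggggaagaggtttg
SNHG8 (chr4:118278747-118278796, plus strand): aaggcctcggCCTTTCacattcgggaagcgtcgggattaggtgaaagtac
SNHG16 (chr17:76557749-76557798, plus strand): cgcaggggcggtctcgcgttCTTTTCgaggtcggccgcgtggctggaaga
The first 5 hosts fell in 3 comparisons each, SNHG4 and SNHG19 in 2 each, and SNHG8 and SNHG16 in none. Among the hosts shown, a run was found both in hosts that fell and in hosts that were not called. This follows in part from the choice, since each uncalled host shown carries a run. SNHG17, which fell in 2 comparisons, and the uncalled GAS5, ZFAS1 and SNHG5 had windows without a run by this definition and are not shown. At their RefSeq starts, SNHG5 and ZFAS1 have a C followed by pyrimidines just short of 5, so a shorter cutoff would count both. The RefSeq start of GAS5 lies at −163 bases from the start of its deposited row, so its window does not reach that start. RefSeq start windows were matched for 30 of the 36 symbols, and 7 of the 30 held a run: MALAT1, SNHG4, SNHG8, SNHG12, SNHG16, SNHG18 and SNHG19. Of all 35116 windows, 11.4% held one. A symbol with several windows was counted once if any of them held the motif. On either strand of the windows, which reach from 250 bases before the start to 50 after it, CACGTG was found for 5 symbols (7.26% of all windows), TTCCCGCC for 2 (3.16%), TTTGGCGC for 0 (0.652%) and TATAAA for 7 (11.5%). These are matches of letters, and the annotated start need not be the one used in these cells.

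Each library held between 21730722 and 35786607 counts. Of the markers of a squamous line, SOX2 was at 342 to 443 TPM (a level scaled to transcript length and library), but the defining genes TP63, KRT5, KRT14, DSG3 and PKP1 had medians under 1 TPM, and only 3 of the 9 markers had a median of at least 1 TPM. INSM1, a neuroendocrine gene, was at 13.8 to 28.0 TPM. Of 4 leukocyte, 4 fibroblast and 2 endothelial markers, LYZ and COL1A1 had a median of at least 1 TPM (1.28 and 3.07), and the defining genes PTPRC, CD3E, PECAM1 and DCN had medians of 0. The leukocyte markers summed to 3.59 to 4.10 TPM in combination cells, 2.64 to 2.96 in palbociclib cells, 1.35 to 1.86 in BLU9931 cells and 1.15 to 1.75 in control cells, led by LYZ. The endothelial sum was 0.242 to 0.432 TPM, 0.256 to 0.524, 0.0140 to 0.0706 and 0.0317 to 0.0423 in the same groups, and the fibroblast sum 1.39 to 3.13, 2.10 to 3.58, 5.29 to 5.52 and 1.97 to 4.69. The 4 neuroendocrine markers summed to 33.2 to 41.3, 20.1 to 28.4, 25.1 to 28.5 and 16.9 to 20.8 TPM. The part of these markers in the results was not tested. Palbociclib 3 and control 1 stood apart from the other libraries. Their scores on the second principal component were 71.6 and 67.4, against −32.6 to 5.38 in the others. They differed in the same direction by GC content: across genes, the rank correlation of a library's deviation with gene GC was −0.735 for palbociclib 3 and −0.667 for control 1, against −0.245 to 0.600 for the others.

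The members follow that split. Of the 13 members with under 45% GC, palbociclib 3 was above the mean of palbociclib 1 and 2 for 12, with a median log2 difference of 0.38, and control 1 was above the mean of control 2 and 3 for all 13, with a median of 0.27. Of the 7 members with over 55% GC, both libraries were below their group mates for 5 of 7, with medians of −0.36 for palbociclib 3 and −0.39 for control 1. MIR17HG, at 37.7% GC, is at one end and SNHG9, at 66.5% GC, at the other. Values without both libraries are therefore given beside several of the results. They are not given for MIR17HG, MEG3, SNHG3, SNHG26, SNHG12 or LINC-PINT. For NEAT1 and MALAT1 they are given only for the combination against palbociclib.

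**Figure D1:**
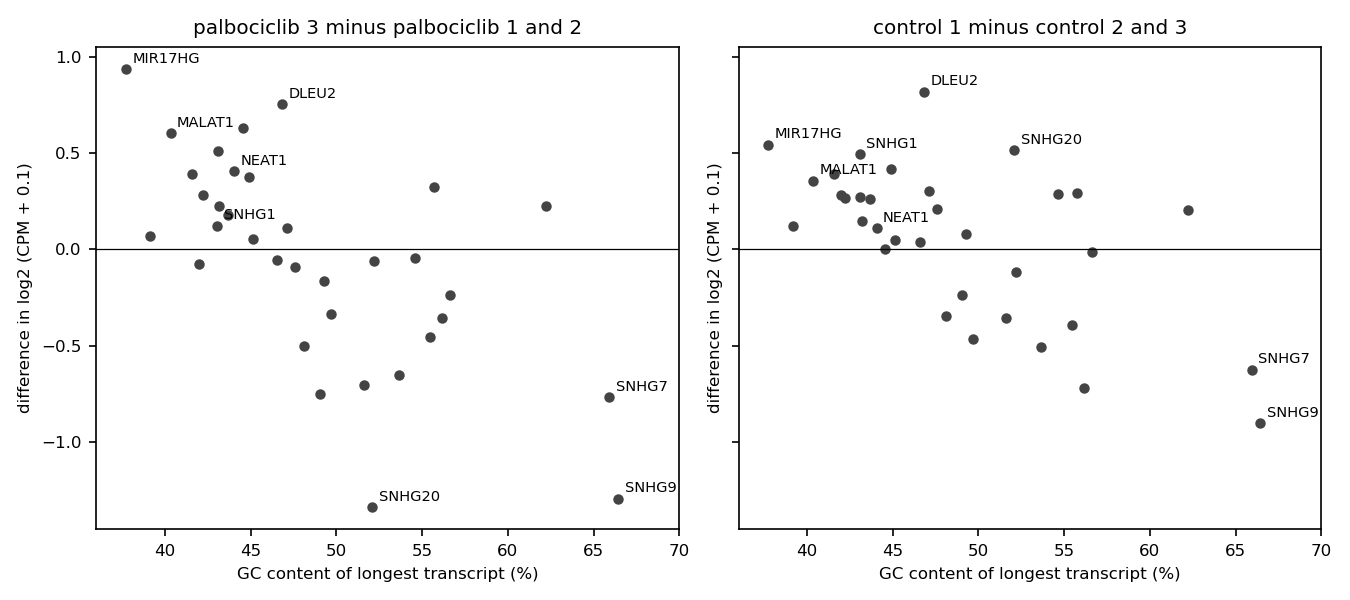
Difference in log2 (CPM + 0.1) between palbociclib 3 and the mean of palbociclib 1 and 2 (left), and between control 1 and the mean of control 2 and 3 (right), against the GC content of the longest annotated transcript in percent; each point is 1 of the 34 tested members. GC-poor members lie mostly above 0 and GC-rich ones mostly below it in both panels.

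Averaged over the groups, SNHG1 had the highest level per length (296 TPM), followed by GAS5 (249), NORAD (200.1), TUG1 (161) and MALAT1 (150.5). In combination cells, GAS5 at 241 ± 6.98 TPM and MALAT1 at 234 ± 24.7 TPM did not differ beyond their spread, and SNHG1 was below both at 187 ± 14.4 TPM (SD, n = 3 each). In control cells, SNHG1 at 416 ± 91.9 TPM lay above GAS5 at 279 ± 22.0 TPM and MALAT1 at 84.9 ± 8.74 TPM. At the low end were LINC-PINT (2.04 TPM), MEG3 (0.403), SNHG18 (0.255) and H19 (0.0571). The TPM of the 26 snoRNA hosts summed to 1427 ± 57.6 in combination cells, 1446 ± 21.1 in palbociclib cells, 1597 ± 57.7 in BLU9931 cells and 1743 ± 122 in control cells. The sum of MALAT1 and NEAT1 ran the other way, at 291 ± 30.3, 225 ± 54.4, 124 ± 1.85 and 107 ± 9.08 TPM in the same groups.

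Each comparison used edgeR's quasi-likelihood F-test with Benjamini-Hochberg adjustment over the 20612 genes tested, and a gene was called at an adjusted p under 0.05. In combination cells against control, 3 members rose and 10 fell, which is 38.2% of the 34, with 31.7% of all tested genes called (15.4% rose and 16.3% fell). In palbociclib cells against control, 3 rose and 7 fell, or 29.4%, with 20.6% of all genes called (10% rose and 10.5% fell). In BLU9931 cells against control, 0 members were called, with 0.18% of all genes called (0.141% rose and 0.0388% fell). Against BLU9931, 4 members rose and 9 fell in combination cells, with 27% of all genes called (13.3% rose and 13.7% fell). Against palbociclib, 1 rose and 1 fell, with 3.82% of all genes called (0.917% rose and 2.91% fell). The interaction compares the log2 change with both drugs and the added changes with each drug alone. It called 0 members, with 1.59% of all genes called (0.281% positive and 1.31% negative), 2 members (5.88%) at an unadjusted p under 0.05, with 14.2% of all genes there, and 0 members by DESeq2, which called 4.6% of all genes. In all, 15 of the 34 members were called in at least 1 comparison. Shares this close to the background are not a result about the members as a set. The median log2 change of the members was −0.10 for the combination and −0.15 for palbociclib, against 0.03 and 0.01 over all genes tested. Groups that do not overlap are common. By CPM, all combination libraries lay above all control libraries for 24.9% of all genes and below for 23.5% (9 and 11 members). Against control, these were 15.8% and 16.2% for palbociclib (4 and 12 members) and 15.3% and 16.3% for BLU9931 (0 and 8). For the combination they were 9.97% and 11.6% against palbociclib (4 and 6) and 27.3% and 25.3% against BLU9931 (9 and 12).

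**Figure D2:**
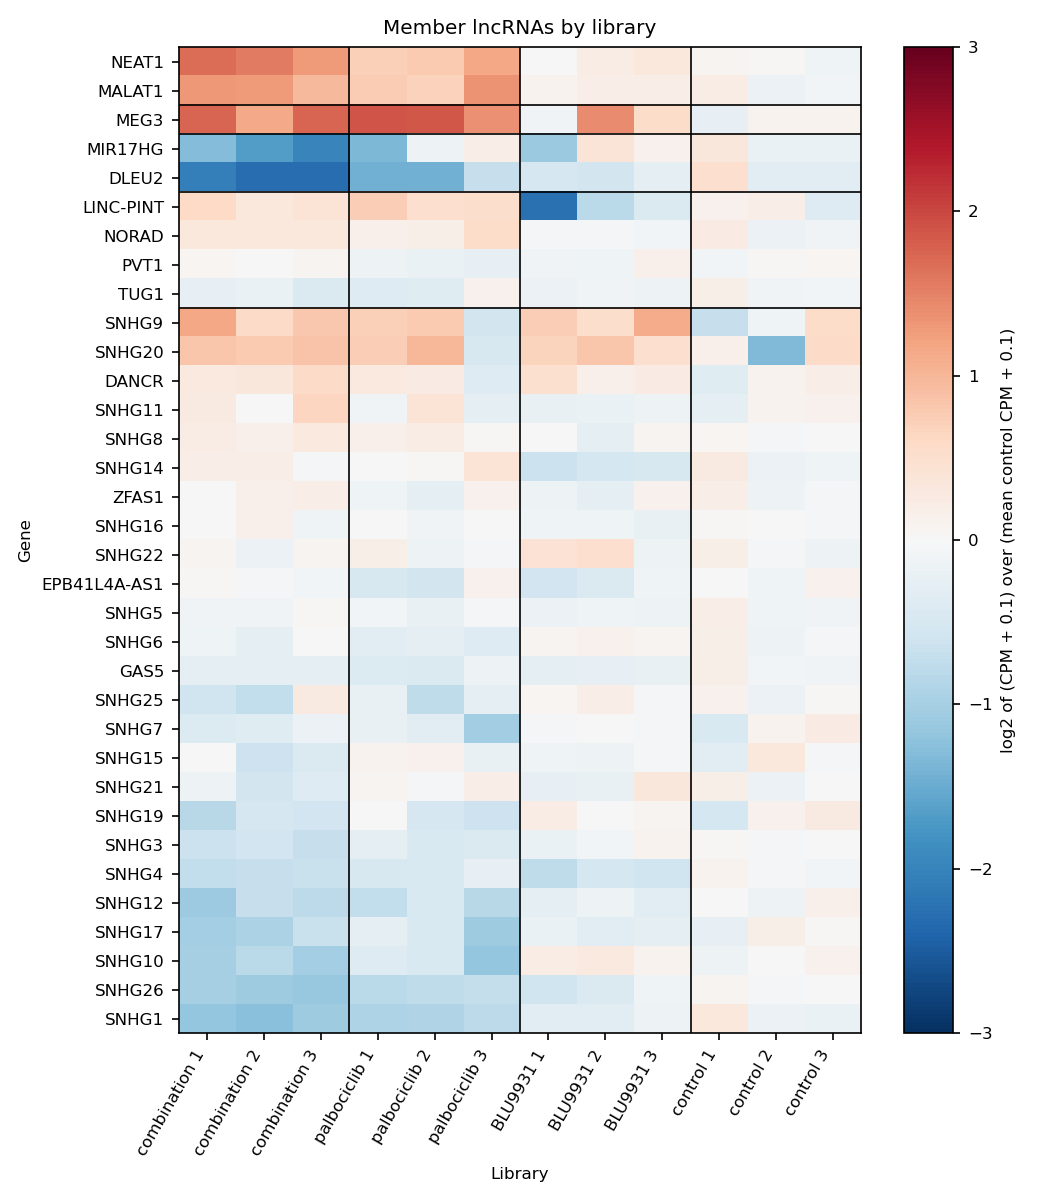
Level of the 34 tested members in the 12 libraries, as the log2 of (CPM + 0.1) over (mean control CPM + 0.1); red is above and blue below the control mean, and black lines part the groups (columns) and the roles (rows). NEAT1, MALAT1 and MEG3 are red in all combination and palbociclib libraries, and snoRNA hosts that fell, such as SNHG1 and SNHG26, are blue in them.

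Both nuclear body RNAs rose with palbociclib and with the combination. NEAT1, which scaffolds paraspeckles, had 60.3, 60.3 and 50.6 TPM in combination cells, 34.2, 35.2 and 45.1 in palbociclib cells, 28.7, 24.8 and 26.5 in BLU9931 cells and 22.3, 24.1 and 19.9 in control cells. The combination libraries lie above all palbociclib libraries, and these above all BLU9931 and control libraries. The log2 fold change was 1.51 ± 0.14 (SE) for the combination against control (edgeR adjusted p 1.42e-05) and 0.89 ± 0.14 for palbociclib against control (adjusted p 0.00118). Against BLU9931 it was 1.33 ± 0.14 in combination cells (adjusted p 4.3e-05). NEAT1 was also the 1 member that rose in combination cells against palbociclib, by a log2 of 0.62 ± 0.14 (adjusted p 0.033). That call lies close to the cutoff and is easily lost. Its adjusted p was above 0.05 when any of BLU9931 2, combination 1, combination 2, control 2, palbociclib 1 or palbociclib 2 was left out. The highest was 0.134. BLU9931 2 and control 2 are outside the compared groups and enter only through the shared fit. The difference was 0.75 ± 0.12 (adjusted p 0.00412) without control 1 and palbociclib 3. With only the combination and palbociclib libraries in the fit, its adjusted p was 0.147, and that of the fall of DLEU2 in the same comparison was 0.113. For BLU9931 against control the log2 change was 0.19 ± 0.14 (adjusted p 0.505).

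MALAT1, the RNA of nuclear speckles, had 251, 245 and 206 TPM in combination cells, 164, 153 and 242 in palbociclib cells, 93.1, 101 and 97.4 in BLU9931 cells and 94.97, 79.5 and 80.2 in control cells. Every combination and palbociclib library lies above every BLU9931 and control library, and palbociclib 3 lies within the combination range. MALAT1 rose by a log2 of 1.19 ± 0.17 in combination cells (adjusted p 0.000282) and 0.97 ± 0.17 in palbociclib cells (adjusted p 0.00204), both against control. Against BLU9931 it rose by 1.02 ± 0.17 in combination cells (adjusted p 0.00097). Against palbociclib the log2 difference was 0.22 ± 0.17 (adjusted p 0.596), and without control 1 and palbociclib 3 it was 0.44 ± 0.09 (adjusted p 0.00972). The short second MALAT1 row, a stretch of 95 bases inside the main gene, held 1 count in every library. So did 255 rows of the table in all, with a median length of 85 bases, 21 of them snoRNA rows inside the hosts, so a value of 1 in such rows may not be a count of reads.

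Of 17 tested rows of paraspeckle proteins, 0 rose and 10 fell in combination cells and 0 rose and 6 fell in palbociclib cells, with medians of −0.43 and −0.33 and, over all genes, 16.3% and 10.5% falling. DAZAP1, an RNA-binding protein, fell by a log2 of 0.88 ± 0.12 in combination cells (adjusted p 0.000184) and by 0.65 ± 0.12 in palbociclib cells (adjusted p 0.00257). Of 14 nuclear speckle proteins, 5 fell in each of the 2 comparisons and 0 rose, against the same shares of all genes. SRSF1, a splicing factor, fell by 0.77 ± 0.13 in combination cells (adjusted p 0.000747).

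**Figure D3:**
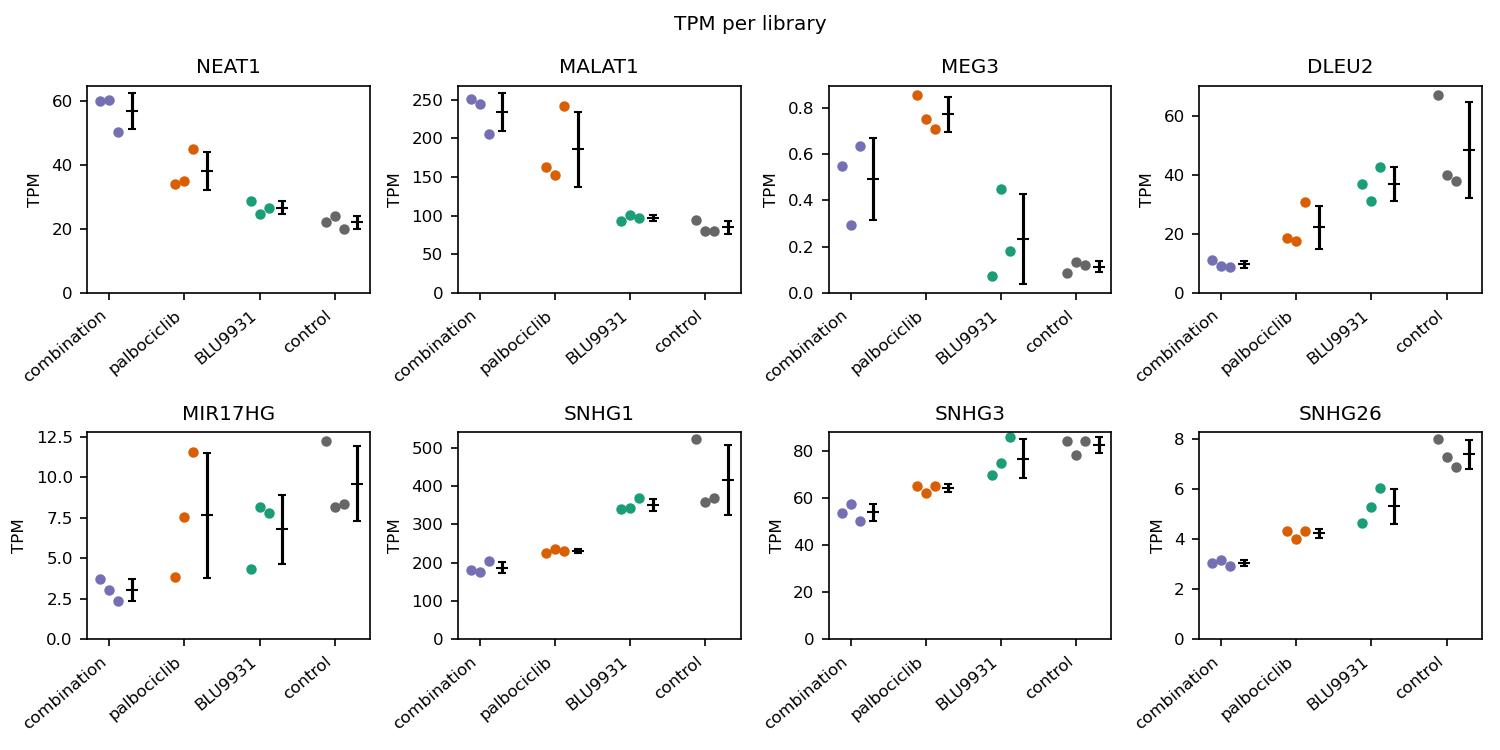
TPM of 8 members in each library by group, from 0 on each axis; points are libraries 1 to 3 and the bar beside them is the mean ± SD. NEAT1 and MALAT1 are highest in combination cells, while DLEU2, SNHG1, SNHG3 and SNHG26 are lowest there and highest in control cells by mean.

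Of the imprinted pair, MEG3 is expressed from the maternal allele and is often silenced in tumours. It was low, with 26, 21 and 36 counts in combination cells, 39, 33 and 22 in palbociclib cells, 6, 27 and 12 in BLU9931 cells and 6, 9 and 11 in control cells. In TPM this was 0.548, 0.292 and 0.638 in combination cells, 0.855, 0.754 and 0.708 in palbociclib cells, 0.0717, 0.452 and 0.180 in BLU9931 cells and 0.0863, 0.133 and 0.122 in control cells. The combination and palbociclib libraries are all above the control libraries. In TPM, BLU9931 overlaps combination and control and lies below palbociclib, while its highest count, 27, lies within the palbociclib range. MEG3 rose by a log2 of 2.02 ± 0.43 in palbociclib cells (adjusted p 0.00613) and 1.85 ± 0.43 in combination cells (adjusted p 0.0064), against control. The other, H19, had 0, 0 and 3 counts in combination cells, 0 in each palbociclib library, 1, 11 and 6 in BLU9931 cells and 0, 2 and 4 in control cells, and was not tested.

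Both miRNA hosts fell with the combination. DLEU2, the primary transcript of miR-15a and miR-16-1, had 11.03, 9.10 and 8.95 TPM in combination cells, 18.6, 17.7 and 30.7 in palbociclib cells, 36.9, 31.3 and 42.7 in BLU9931 cells and 67.3, 39.9 and 38.1 in control cells. The combination libraries lie below all others, and the palbociclib libraries below all BLU9931 and control libraries. On the log2 scale it fell by 2.22 ± 0.27 in combination cells (adjusted p 8.69e-05) and 1.16 ± 0.26 in palbociclib cells (adjusted p 0.00838), against control. In combination cells it fell by 1.77 ± 0.26 against BLU9931 (adjusted p 0.000497). Control 1 and palbociclib 3 are the highest libraries of their groups, and without them the falls against control were 1.90 ± 0.11 (adjusted p 5.16e-07) for the combination and 1.13 ± 0.12 (adjusted p 0.000102) for palbociclib. Against palbociclib, DLEU2 fell by 1.06 ± 0.26 in combination cells (adjusted p 0.0481). That call is lost when any single library other than control 1 is left out, with adjusted p up to 0.169; without control 1 and palbociclib 3 together the fall was 0.77 ± 0.11 (adjusted p 0.00197). TRIM13, whose exons overlap 6.78% of those of DLEU2 on the other strand, fell by 0.43 ± 0.14 in combination cells (adjusted p 0.0346) and had a log2 change of −0.12 ± 0.14 in palbociclib cells (adjusted p 0.577).

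MIR17HG, the primary transcript of the miR-17-92 cluster and a known target of MYC, had 3.74, 3.06 and 2.38 TPM in combination cells and 3.82, 7.54 and 11.5 in palbociclib cells. It had 4.35, 8.18 and 7.82 TPM in BLU9931 cells and 12.3, 8.19 and 8.33 in control cells. All combination libraries are below all BLU9931 and control libraries, and the palbociclib libraries spread across both. On the log2 scale it fell by 1.70 ± 0.45 in combination cells against control (adjusted p 0.0131) and fell by 1.63 ± 0.45 against BLU9931 (adjusted p 0.0185). Without combination 3 the first had an adjusted p of 0.0559, and the second was above 0.05 without any of BLU9931 2, BLU9931 3, combination 2 or combination 3. For palbociclib against control the log2 change was −0.31 ± 0.42 (adjusted p 0.653). Of 10 factors that process miRNAs or bind NORAD, 0 rose and 3 fell in combination cells, with 16.3% of all genes falling. AGO2, the slicing Argonaute, fell by 0.85 ± 0.07 (adjusted p 7.05e-06), and XPO5, which exports miRNA precursors, by 0.46 ± 0.08 (adjusted p 0.000877).

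Of the 25 tested snoRNA hosts, 8 fell and 0 rose in combination cells against control, and 6 fell and 0 rose in palbociclib cells. Their median log2 changes were −0.28 and −0.27. Thus 32% and 24% were called, and all called hosts were falls. Of all genes, 16.3% and 10.5% fell in these comparisons, and 31.7% and 20.6% were called in either direction. In all, 9 hosts were called in at least 1 comparison and 16 in none. When the palbociclib and control libraries were fitted alone, without the other groups to share the estimate of spread, SNHG1 and SNHG26 were the 2 members that fell. The adjusted p of DLEU2, SNHG12, SNHG3, SNHG4 and SNHG10 then lay between 0.0718 and 0.176.

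**Figure D4:**
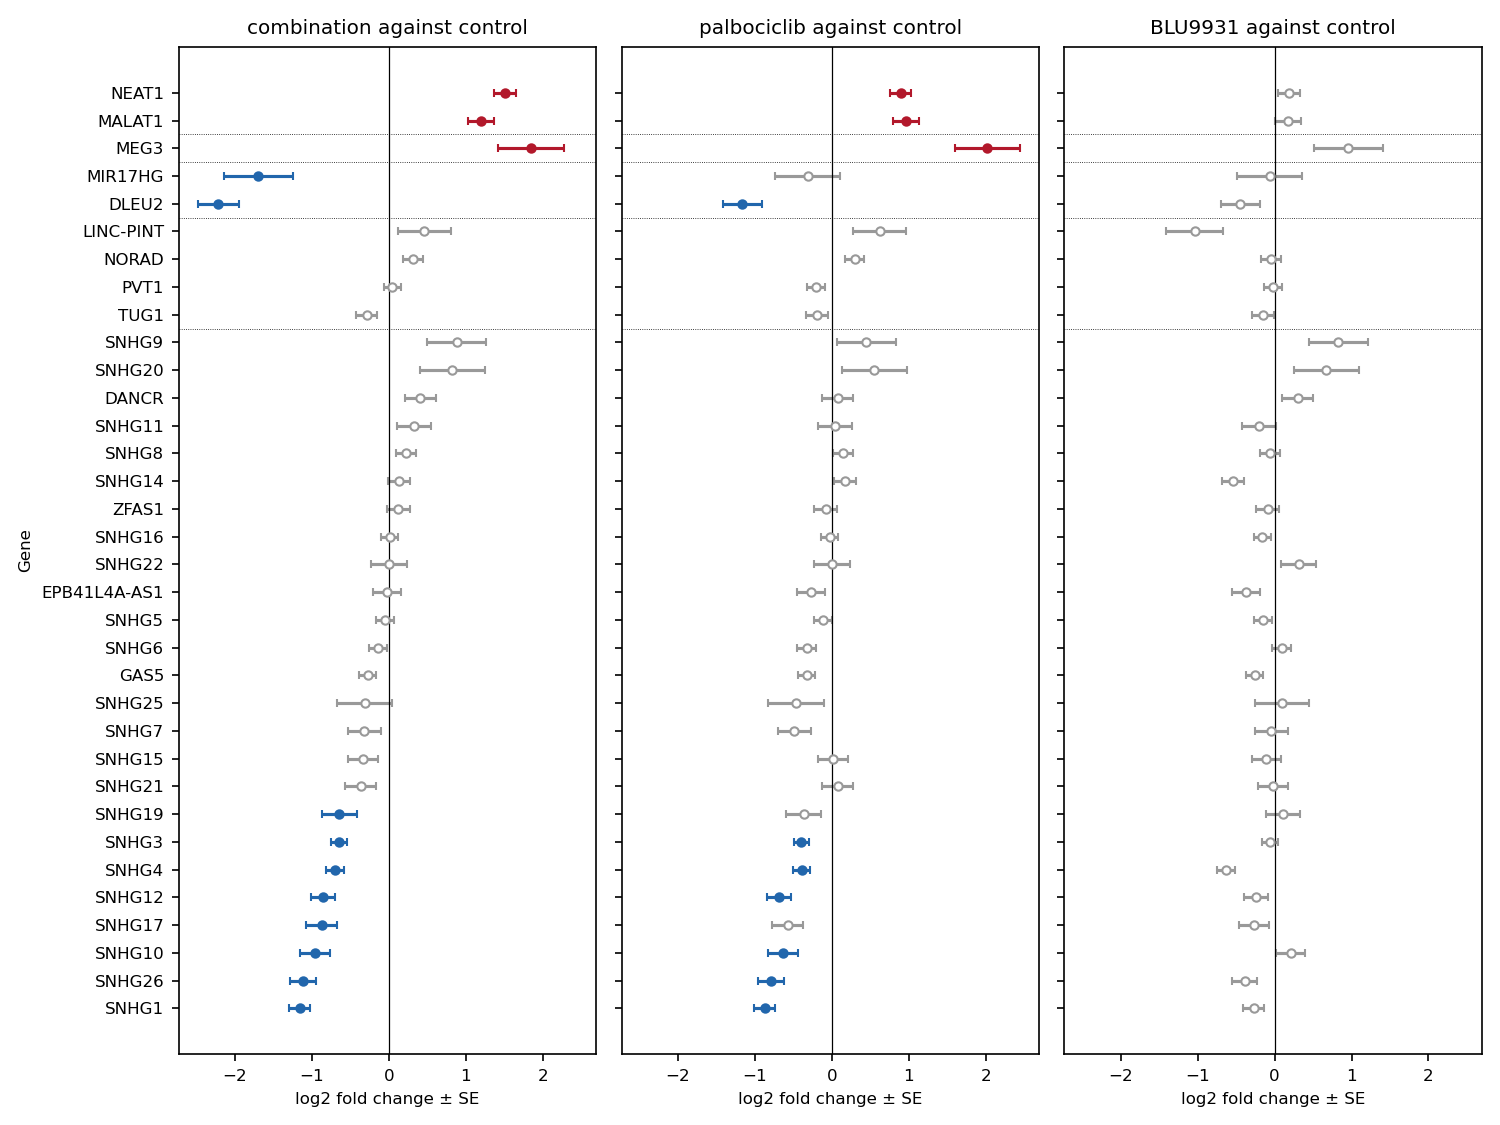
Log2 fold change ± SE of the 34 tested members against control, for the combination (left), palbociclib (middle) and BLU9931 (right); red points rose and blue points fell at an edgeR adjusted p under 0.05, open grey points were not called, and dotted lines part the roles. No member is called for BLU9931.

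SNHG1 is a host of C/D snoRNAs, with 7 SNORD rows of the table inside it. It had 182, 177 and 204 TPM in combination cells, 225, 234.6 and 232 in palbociclib cells, 340.4, 342 and 369 in BLU9931 cells and 522, 359 and 368 in control cells. Combination libraries are all below palbociclib libraries, which are all below the rest. SNHG1 fell by a log2 of 1.16 ± 0.14 in combination cells (adjusted p 6.69e-05) and 0.87 ± 0.13 in palbociclib cells (adjusted p 0.00103), against control. Against BLU9931 it fell by 0.89 ± 0.13 in combination cells (adjusted p 0.00055), and against palbociclib the log2 difference was −0.29 ± 0.13 (adjusted p 0.328). Control 1 is the high control library, and without it and palbociclib 3 the falls against control were 0.99 ± 0.07 for the combination and 0.73 ± 0.08 for palbociclib, with adjusted p of 2.78e-06 and 0.000119. SLC3A2, an amino acid transporter subunit that starts within 1 kb of SNHG1 on the other strand, fell by 0.66 ± 0.15 in palbociclib cells (adjusted p 0.00812) and had a log2 change of −0.29 ± 0.15 in combination cells (adjusted p 0.162).

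SNHG3 hosts the H/ACA RNAs SNORA73A and SNORA73B. It had 53.6, 57.5 and 50.2 TPM in combination cells, 65.1, 62.1 and 65.0 in palbociclib cells, 69.4, 74.6 and 85.8 in BLU9931 cells and 84.1, 78.2 and 84.2 in control cells. The combination, palbociclib and control libraries form 3 ranges that do not overlap. It fell by 0.64 ± 0.10 in combination cells (adjusted p 0.000594) and 0.39 ± 0.10 in palbociclib cells (adjusted p 0.0179), against control. The second call is lost without palbociclib 2. RCC1, the Ran exchange factor, shares 5.92% of the exon bases of SNHG3 on the same strand, so reads there cannot be told apart; RCC1 fell by 1.02 ± 0.17 and 0.65 ± 0.17 in the same comparisons (adjusted p 0.00106 and 0.0218).

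SNHG26 was low, at 3.05, 3.16 and 2.92 TPM in combination cells, 4.35, 4.01 and 4.35 in palbociclib cells, 4.65, 5.29 and 6.03 in BLU9931 cells and 8.02, 7.28 and 6.90 in control cells. All 4 groups keep apart from one another. SNHG26 fell by 1.11 ± 0.17 in combination cells (adjusted p 0.000466) and 0.79 ± 0.17 in palbociclib cells (adjusted p 0.00655), against control. The RefSeq start of SNHG12, which carries a TOP run, lies 1110 bases downstream of the start of its deposited row. SNHG12 had 7.42, 12.7 and 11.95 TPM in combination cells and 11.6, 15.2 and 11.6 in palbociclib cells. It had 17.5, 19.8 and 17.6 TPM in BLU9931 cells and 20.4, 17.6 and 27.8 in control cells. Combination and palbociclib libraries lie below all control libraries. SNHG12 fell by 0.85 ± 0.16 in combination cells (adjusted p 0.00173) and 0.68 ± 0.16 in palbociclib cells (adjusted p 0.0104). Both SNHG26 and SNHG12 also fell in combination cells against BLU9931, by 0.72 ± 0.17 and 0.61 ± 0.16 (adjusted p 0.00862 and 0.0144), the second not without BLU9931 2 or combination 1.

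SNHG10, the host of SCARNA13, had 10.2, 10.8 and 8.72 TPM in combination cells, 13.9, 13.8 and 7.69 in palbociclib cells, 21.5, 22.1 and 19.7 in BLU9931 cells and 16.8, 18.5 and 19.7 in control cells. Palbociclib 3 is the lowest library of all. SNHG10 fell by 0.96 ± 0.20 in combination cells against control (adjusted p 0.00318) and by 1.17 ± 0.20 against BLU9931 (adjusted p 0.0011). Its fall of 0.63 ± 0.19 in palbociclib cells (adjusted p 0.0383) is lost when any of 10 of the 12 libraries is left out, with adjusted p up to 0.109. It was 0.50 ± 0.13 (adjusted p 0.0146) without control 1 and palbociclib 3 together, and SNHG10 then also fell in combination cells against palbociclib, by 0.55 ± 0.12 (adjusted p 0.0175). GLRX5 overlaps 20.1% of the exon bases of SNHG10 on the other strand and fell by 0.54 ± 0.10 in palbociclib cells (adjusted p 0.00338) and 0.30 ± 0.10 in combination cells (adjusted p 0.0425).

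SNHG4 was lower in every treated group. It had 84.3, 86.6 and 86.3 TPM in combination cells, 100.2, 104 and 119 in palbociclib cells, 81.4, 95.2 and 90.0 in BLU9931 cells and 146, 134 and 131 in control cells. The treated libraries are all below the control libraries. SNHG4 fell by 0.70 ± 0.11 in combination cells (adjusted p 0.000642) and 0.39 ± 0.11 in palbociclib cells (adjusted p 0.0286), the second not without any of control 1, control 2, palbociclib 1 or palbociclib 2. For BLU9931 its log2 change was −0.63 ± 0.11 (edgeR adjusted p 0.0542), the member closest to a call there. Without control 1 and palbociclib 3 it was −0.57 ± 0.08 (adjusted p 0.0104). MATR3, a nuclear matrix protein, shares 14% of the exon bases of SNHG4 on the same strand. Of its rows, ENSG00000015479 had a log2 change of −0.43 ± 0.15 (adjusted p 0.0516) in combination cells and ENSG00000280987 fell by 0.35 ± 0.12 (adjusted p 0.0395).

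SNHG17, which carries SNORA71 genes, and SNHG19 were called for the combination and not for palbociclib, and neither interaction was called (adjusted p 0.968 and 0.63). SNHG17 had 13.2, 16.5 and 17.9 TPM in combination cells, 22.1, 22.2 and 12.02 in palbociclib cells, 25.0, 23.2 and 24.1 in BLU9931 cells and 20.1, 30.1 and 28.6 in control cells. Palbociclib 3 and control 1 are the low libraries of their groups. SNHG17 fell by 0.87 ± 0.20 in combination cells against control (adjusted p 0.00591) and by 0.61 ± 0.20 against BLU9931 (adjusted p 0.0399), the second not without any of 6 libraries (all 3 BLU9931 libraries, combination 1, combination 2 or control 3). In palbociclib cells its log2 change was −0.57 ± 0.20 (adjusted p 0.0613), and −0.49 ± 0.14 (adjusted p 0.021) without palbociclib 3 and control 1.

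SNHG19 had 26.2, 33.7 and 31.4 TPM in combination cells, 46.3, 34.2 and 30.2 in palbociclib cells, 53.8, 46.7 and 49.8 in BLU9931 cells and 31.4, 50.1 and 55.6 in control cells. Control 1 lies within the combination range. SNHG19 fell by 0.64 ± 0.22 in combination cells against control (adjusted p 0.047), a call lost when any of 9 libraries is left out, with adjusted p up to 0.162. It was also lost with no filter, with scaling to library totals, on TPM with limma or with the compared groups alone, with adjusted p up to 0.0804. The fall was 0.86 ± 0.17 (adjusted p 0.00197) without control 1 and palbociclib 3. Against BLU9931 it fell by 0.75 ± 0.22 (adjusted p 0.0274), lost without any single BLU9931 or combination library.

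SNHG14 spans the imprinted region on chromosome 15 and holds 84 of the snoRNA rows, among them 49 SNORD115 and 30 SNORD116 copies. It had 106, 112 and 92.2 TPM in combination cells, 90.0, 96.5 and 135 in palbociclib cells, 48.6, 57.1 and 66.4 in BLU9931 cells and 108, 64.7 and 69.3 in control cells. Combination libraries are all above BLU9931 libraries. SNHG14 rose by a log2 of 0.68 ± 0.14 in combination cells against BLU9931 (adjusted p 0.00455). Its log2 change was 0.13 ± 0.14 for the combination against control (adjusted p 0.516) and −0.55 ± 0.14 for BLU9931 against control (adjusted p 0.149). Without control 1 and palbociclib 3, SNHG14 rose by 0.27 ± 0.08 in combination cells (adjusted p 0.0203) and fell by 0.39 ± 0.08 in BLU9931 cells (adjusted p 0.0339), both against control. SNRPN, the splicing protein gene that overlaps it on the same strand, rose by 0.74 ± 0.18 in combination cells against control (adjusted p 0.00894).

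The snoRNAs inside the hosts were scarcely measured by these libraries. In the table, 135 rows named SNORD, SNORA or SCARNA lie inside 25 of the hosts, 104, 26 and 5 of each kind. Of these 48 had 0 counts in every library, 21 had exactly 1 in every library, which may not be a count of reads, and 16 passed the filter. Of the SNORD22 rows in SNHG1, the one with 1943 counts over all libraries was tested and the one with 47 was not. In combination cells against control, the tested SNORD22 row fell by 1.12 ± 0.25 (adjusted p 0.00516). Also in SNHG1, SNORD26 fell by 1.43 ± 0.26 (adjusted p 0.00134) and SNORD30 by 0.97 ± 0.25 (adjusted p 0.0124) in that comparison. SNORA73B in SNHG3 fell by 0.77 ± 0.23 (adjusted p 0.0227), and SNORA71B and SNORA71C in SNHG17 by 1.07 ± 0.38 and 1.87 ± 0.50 (adjusted p 0.0467 and 0.0134). SNORD87 fell by 1.33 ± 0.30 (adjusted p 0.00543), and its host SNHG6 had a log2 change of −0.14 ± 0.12 (adjusted p 0.39). The other tested rows were not called in that comparison, where 16.3% of all genes fell. They are SNORA13, SNORA24, SNORA26, SNORA50C, SNORD12, SNORD12B, SNORD104, SCARNA17 and SCARNA13. SCARNA13, in the fallen host SNHG10, had a log2 change of −0.59 ± 0.57 (adjusted p 0.467). SNORA26 in DANCR rose in combination cells against BLU9931, by 0.92 ± 0.26 (adjusted p 0.02). A count at these positions can be the mature snoRNA or unspliced host RNA, and the libraries do not tell these apart. Of 20 core proteins and assembly factors of snoRNA particles, 11 fell and 0 rose in combination cells (median log2 −0.44) and 10 fell and 0 rose in palbociclib cells (median −0.51), with 16.3% and 10.5% of all genes falling in these comparisons. NOP56, a core protein of C/D particles, was at 83.7 ± 3.21 CPM in combination cells against 170 ± 1.08 CPM in control cells (SD, n = 3 each), a log2 fall of 1.02 ± 0.08 (adjusted p 3.2e-06). DKC1, the pseudouridine synthase of H/ACA particles, fell by 1.00 ± 0.10 (adjusted p 1.75e-05). For BLU9931, 0 of the 20 were called, with a median of −0.24.

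GAS5, a host that accumulates in growth-arrested cells and binds the glucocorticoid receptor, was among the hosts not called. It had 234, 243 and 247 TPM in combination cells, 222, 213 and 249.6 in palbociclib cells, 242, 248 and 253.5 in BLU9931 cells and 304, 265 and 267 in control cells. All treated libraries are below all control libraries. By CPM, 23.5% of all genes lay so for the combination, 16.2% for palbociclib and 16.3% for BLU9931, each taken alone. The log2 change of GAS5 was −0.33 ± 0.11 in palbociclib cells (adjusted p 0.0569), −0.28 ± 0.11 in combination cells (adjusted p 0.0783) and −0.26 ± 0.11 in BLU9931 cells (adjusted p 0.291). Without control 1 and palbociclib 3, GAS5 fell by 0.34 ± 0.06 in palbociclib cells (adjusted p 0.00225) and 0.20 ± 0.06 in combination cells (adjusted p 0.0169). Of the other uncalled hosts, SNHG16, SNHG8, SNHG5 and ZFAS1 had log2 changes of 0.01 ± 0.11, 0.22 ± 0.13, −0.05 ± 0.12 and 0.12 ± 0.15 in combination cells against control. Over all 19 uncalled members the log2 changes against control lay between −0.37 (SNHG21) and 0.88 (SNHG9) for the combination. For palbociclib they lay between −0.48 (SNHG7) and 0.55 (SNHG20). SNHG18 had 0 to 13 counts in a library and was not tested.

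Among the members with other functions, LINC-PINT, a p53-induced RNA, was low. It had 2.35, 3.34 and 3.57 TPM in combination cells, 3.28, 2.11 and 2.31 in palbociclib cells, 0.743, 0.629 and 1.41 in BLU9931 cells and 1.90, 1.52 and 1.34 in control cells. Counts in BLU9931 cells were 8, 32 and 37. BLU9931 overlaps control in TPM, and all combination libraries are above both. LINC-PINT rose by a log2 of 1.498 ± 0.37 in combination cells against BLU9931 (adjusted p 0.0102), while against control the log2 change was 0.46 ± 0.35 (adjusted p 0.34). The lncRNA AC016831.6 shares 21.7% of the exon bases of LINC-PINT on the same strand, so reads there cannot be told apart. NORAD, which binds PUMILIO proteins, had 225 to 229 TPM in combination cells, 200.02 to 263 in palbociclib cells, 171 to 174 in BLU9931 cells and 155 to 207 in control cells. Its log2 change was 0.31 ± 0.13 in combination cells against control (adjusted p 0.0828), and without control 1 and palbociclib 3 it rose by 0.44 ± 0.05 (adjusted p 3.33e-05). TUG1, and PVT1 next to MYC, had log2 changes of −0.29 ± 0.14 and 0.05 ± 0.12 in combination cells (adjusted p 0.142 and 0.793).

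For BLU9931 alone, edgeR called 0 members, with 5 at an unadjusted p under 0.05, all lower in BLU9931 cells: SNHG4, SNHG14, LINC-PINT, SNHG26 and GAS5. These are 14.7% of the members, with 16.2% of all genes at such a p. DESeq2 called 2 of them, SNHG4 and SNHG14, and 3.39% of all genes with an adjusted p, against 0.18% by edgeR. When control 1 and palbociclib 3 were both left out, more genes of the whole table were called as well. The members called were then 5 that rose and 14 that fell for the combination against control, with 19% and 20.7% of all genes. They were 4 and 12 for palbociclib against control, with 13.8% and 15.3% of all genes, and 0 and 2 for BLU9931 against control, with 1.47% and 1.22%. They were 2 and 3 for the combination against palbociclib, with 3.63% and 6.24% of all genes, and 7 and 11 for the combination against BLU9931, with 20.2% and 21.8%. The interaction then called 5 members, positive for SNHG14, EPB41L4A-AS1 and GAS5 and negative for SNHG10 and DLEU2, with 10.1% of all genes called.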

How the data were processed

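Counts, TPM and FPKM per gene and library were deposited in 1 table, each named so per the file headers; how the counts were made, the strand setting and the annotation release are not given in the sources used here. Tools named in the submitters' processing notes are StringTie 1.3.3b, HISAT2 2.0, Trimmomatic 0.36 and bedtools 2.26.0; the build named there is a mouse one, although the IDs are human; 57836 of 58174 are in GENCODE 29. The deposited FPKM values were not used. The counts were fitted in R 4.3.3 with edgeR 4.0.16 (filterByExpr, TMM, robust quasi-likelihood, 12 libraries, a term per group, 8 residual degrees of freedom, common dispersion 0.0518), which tested 20612 genes two-sided in 6 comparisons; the script was tested on simulated data. CPM are counts scaled to TMM-adjusted library sizes. Levels are mean ± SD of 3 libraries; log2 changes carry the SE of the fit. GC content is that of the longest GENCODE 29 transcript, and promoter and miRNA sequences are RefSeq's (GRCh38.p14). DESeq2 1.42.0 and limma 3.58.1 served alternatives. Members, lists and tests were chosen with earlier results of these data known. Members called anywhere are named with all libraries, the others by range; from other lists, at most the pair with the smallest adjusted p in a comparison, and genes that overlap or neighbour a member, are named. No column was of another series (0 found).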

Additional observations from a re-analysis of the deposited data

Results flagged for a closer look

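HSPA8, a protein-coding host of snoRNAs, had an interaction of 0.66 ± 0.10 on the log2 scale (edgeR adjusted p 0.00794): its fall with both drugs was smaller than the added falls with each. HSPA8 fell by 0.46 ± 0.07 in combination cells (adjusted p 0.000575) and by 0.72 ± 0.07 in palbociclib cells (adjusted p 7.19e-05), and had a log2 change of −0.40 ± 0.07 in BLU9931 cells (adjusted p 0.0542), each against control.

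ACAA2, which encodes a mitochondrial thiolase and starts within 1 kb of SNHG22 on the other strand, had an interaction of 0.63 ± 0.13 on the log2 scale (adjusted p 0.0429). It was at 299 ± 8.18 CPM in combination cells, 214 ± 6.01 in palbociclib cells, 215 ± 11.8 in BLU9931 cells and 238 ± 28.6 in control cells (SD, n = 3 each).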

How the results depend on the processing

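The direction of every call on a member was kept in all alternatives. With GC adjustment, members that rose and fell numbered 1 and 3 for BLU9931 against control, 13 fell for palbociclib against control, 2 rose for the combination against palbociclib and 3 had a positive interaction; of all genes 1.53% and 2.23%, 20.5%, 6.23% and 5.12% were called so. With GC adjustment and the replicate block these were 1, 2, 11, 2 and 2, and 7 rose for the combination against BLU9931 (all genes: 0.791%, 0.951%, 19.3%, 4.61%, 3.38% and 19.9%). Without control 1 and palbociclib 3 they were 2 fallen for BLU9931, 12 fallen for palbociclib, 5 risen for the combination against control, 2 risen and 3 fallen against palbociclib, 7 risen against BLU9931, and 3 positive and 2 negative interactions, with the shares of all genes given above. DESeq2 gave 2 fallen for BLU9931 and 2 fallen for the combination against palbociclib (all genes: 1.69% and 4.66%). On TPM with limma 1 fell for BLU9931, 5 rose for the combination against control and 0 rose against palbociclib (all genes: 0.0388%, 15.7% and 0.602%). With no filter 4 fell for palbociclib (4.37% of all genes). Fits with only the compared groups gave 2 fallen for palbociclib, and 0 risen and 0 fallen for the combination against palbociclib (all genes: 3.99%, 0.286% and 1.11%). The cause of these shifts was not tested. Leaving out 1 library gave 0 to 0 risen and 0 to 2 fallen for BLU9931, 3 to 4 and 4 to 9 for palbociclib, 3 to 5 and 8 to 12 for the combination, 0 to 1 and 0 to 1 against palbociclib, 4 to 5 and 5 to 9 against BLU9931, and 0 to 1 and 0 to 1 for the interaction. The count fallen for palbociclib was 4 without palbociclib 2, and the count fallen for the combination against BLU9931 was 5 without BLU9931 2. Without palbociclib 3, 5 rose for the combination against control, 2 fell for BLU9931, and 1 positive and 1 negative interaction were called.

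The replicate numbers do not pair the samples: deviations of same-numbered libraries correlated between −0.364 and 0.168, over 0.1 in 3 of 18 pairs, and those of other numbers between −0.277 and 0.464. With the replicate block, 0 members rose and 0 fell for BLU9931 or for the combination against palbociclib, 3 and 5 for palbociclib, 3 and 9 for the combination against control, 4 and 7 against BLU9931, and 0 and 0 for the interaction; of all genes 0.0097%, 2.34%, 15.7%, 27.2%, 22.7% and 0.689% were called, for BLU9931, the combination against palbociclib, palbociclib, the combination against control and against BLU9931, and the interaction. The adjusted p of SNHG19 for the combination against control was then 0.0876. Scaling to library totals moved the median of all genes to 0.11 for the combination against control, with TMM at 0.03. Groups of 3 limit the precision of each SE, and low members such as MEG3, with 6 to 39 counts, are the least certain.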

Other observations

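Of 23 tested protein-coding hosts of snoRNAs, 2 rose and 5 fell in combination cells against control, and 1 rose and 6 fell in palbociclib cells. Of all genes, 31.7% and 20.6% were called, so the 7 of 23 for the combination are near the background. NCL, which encodes nucleolin, fell by a log2 of 0.97 ± 0.10 in combination cells (edgeR adjusted p 3.97e-05) and by 0.87 ± 0.10 in palbociclib cells (adjusted p 0.000219). HSPA8, a heat shock cognate chaperone, was at 1431 ± 58.6 CPM in combination cells, 1200.3 ± 66.5 in palbociclib cells, 1492 ± 96.1 in BLU9931 cells and 1972 ± 60.8 in control cells (SD, n = 3 each).

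Of 17 TOP mRNAs of the translation machinery, 2 rose and 5 fell in combination cells, and 0 rose and 4 fell in palbociclib cells, with medians of 0.02 and −0.10, and the same shares of all genes called. NPM1, a nucleolar chaperone, fell by 1.04 ± 0.17 in combination cells (adjusted p 0.000673). Of 16 factors of nonsense-mediated decay, 0 rose and 4 fell in combination cells, and 0 rose and 3 fell in palbociclib cells, with 16.3% and 10.5% of all genes falling. SMG1, the kinase of that pathway, fell by 0.78 ± 0.12 in combination cells (adjusted p 0.000568).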
